A study of Homo sapiens with 6 samples.

Results

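The genes described here are 10 genes of bone morphogenetic protein (BMP) signalling, taken by symbol as the ligand BMP4, the receptors BMPR1A and BMPR2, the signal transducers SMAD1 and SMAD5, the inhibitory SMAD6, the secreted antagonist GREM1 and the target genes ID1, ID2 and ID3. Each of the 10 symbols matched 1 of the 23754 features in the table, and all 10 passed the filter on low counts that left 13991 features for testing. They were measured in IMR-90 cells, a line of human fetal lung fibroblasts, transduced with a lentiviral vector that carries the doxycycline-inducible sh-2 short hairpin against ZNF469 and kept under puromycin. The hairpin was switched on over 4 days by doxycycline at 2 µg/mL in the DOX+ group (3 libraries). The study left the control cells of that line without doxycycline (the DOX− group, 3 libraries). The labels call the control genotype wild-type, while the methods describe the non-induced line, and that description was used. Both groups carry the vector, and no library had doxycycline without the hairpin, so the effects of the drug and of the hairpin cannot be told apart. Total counts were 34057675 to 36120260 per library. The submitters describe the libraries as technical replicates, so p-values measure only the spread between these samples, and fewer cells expressing a gene and less RNA per cell cannot be told apart in bulk RNA.

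BMP ligands bring together type I receptors such as BMPR1A and type II receptors such as BMPR2, and the type I receptor then phosphorylates SMAD1 and SMAD5, which enter the nucleus with SMAD4. Among the genes they switch on are ID1, ID2 and ID3, whose proteins bind the E proteins of the helix-loop-helix family and keep them off DNA, and SMAD6, which dampens the pathway. GREM1 encodes gremlin, a secreted protein that holds BMP ligands away from their receptors and is known for its raised level in fibrotic lung.

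ZNF469 (ENSG00000225614), the gene the hairpin targets, was measured at 118, 112 and 126 CPM (counts scaled to library size by TMM) in the DOX− libraries and at 80.4, 80.4 and 79.6 CPM in the DOX+ libraries. By the quasi-likelihood test of edgeR it was lower in DOX+ cells by a log2 fold change of −0.57 ± 0.0477 (standard error, adjusted p = 3.31e-05), which left 67.5% of the DOX− level. All fold changes below set DOX+ over DOX−, and a gene is called changed at a Benjamini-Hochberg FDR under 0.05 over the 13991 features. Of 9 fibroblast markers, 5 were called lower (COL1A1, COL1A2, COL3A1, DCN and LUM), while PDGFRA, PDGFRB, VIM and THY1 were not called. Their summed level, most of it from the collagen genes COL1A1 and COL1A2, went from 36754 to 37883 CPM in DOX− cells to 27379 to 28282 CPM in DOX+ cells, a shift whose part in the values below was not tested. PECAM1 and CDH5 of the endothelial markers, SFTPC and NKX2-1 of the epithelial markers, and CD3E and LYZ of the immune markers had 0 counts in all 6 libraries. Other genes of these lists were detected. The epithelial list summed to 107 to 116 CPM in DOX− cells and 110 to 132 CPM in DOX+ cells, most of it from KRT18 (log2 fold change 0.15, edgeR adjusted p = 0.273). The endothelial list summed to 20.1 to 24.4 and 20.6 to 24.0 CPM, and the immune list, most of it CD68, to 60.5 to 66.7 and 59.0 to 65.1 CPM. The smooth muscle and pericyte list summed to 1724 to 1811 CPM in DOX− cells and 1778 to 1919 CPM in DOX+ cells. Of its 6 genes, 3 had every DOX+ value above every DOX− value and 1 had every DOX+ value below. Over all features tested these shares were 9.73% and 10.6%. No gene of the epithelial, endothelial, immune or smooth muscle and pericyte lists was called, and their part in the values below was not tested. DOX+ replicate 2 stood apart from the other libraries on the first principal component (23.9% of the variance, score 32.8 against −12.6 to 0.524). On the second component (21.5%), DOX+ replicate 3 (−29.0) and DOX− replicate 1 (20.3) stood apart from the others (0.721 to 4.51).

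None of the 10 BMP and ID genes was called changed in DOX+ cells, against 1.12% of all features tested (0.4% higher and 0.715% lower). Their log2 fold changes ran from −0.21 for SMAD1 to 0.18 for BMPR2, with a median of 0.01 beside −0.0019 over all features. Of the 10, 6 lay above 0 and 4 below, and 49.3% of all features lay above 0. At an unadjusted p under 0.05, 2 of the 10 were higher and 0 lower, where 7.31% of all features were higher and 7.69% lower. The 2 were the receptor gene BMPR2 and the transducer gene SMAD5, and DESeq2's test called the same 2 of the 8 genes to which it gave an adjusted p (6.62% of all features with one were called, 3.32% higher). The DOX+ and DOX− values did not overlap for 3 of the 10 (BMPR2, SMAD5 and ID2, each higher in DOX+ cells), where 20.3% of all features did not overlap, 9.73% with the DOX+ values higher and 10.6% with them lower. For single genes the two-sided exact permutation test cannot go below p = 0.1 with 3 libraries against 3.

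**Figure D1:**
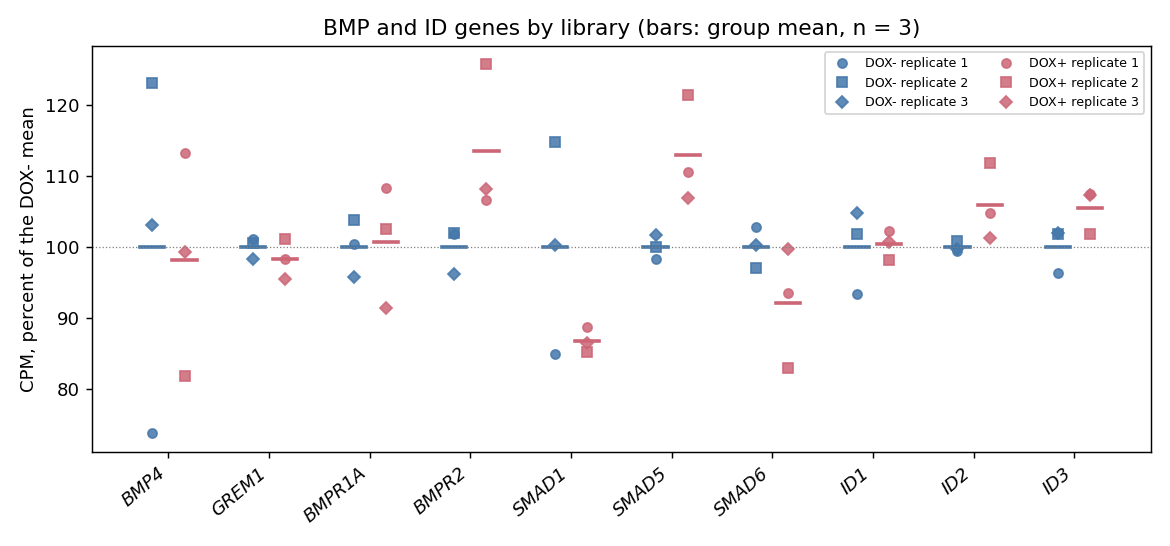
Level of each of the 10 genes in each library, in CPM as a percent of the gene's DOX− mean (y axis), with DOX− libraries in blue, DOX+ libraries in red, a marker shape for each replicate number and bars at the group means (n = 3). DOX+ replicate 2 holds the highest value of BMPR2, SMAD5 and ID2, and the values of BMP4 spread over 2.01 to 3.35 CPM within the DOX− group alone.

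The 10 genes covered a wide range of levels per transcript length, given by the deposited FPKM, which divides fragment counts by transcript length and depth. GREM1 was the most abundant, at 295 to 319 FPKM over the 6 libraries, and ranked 191 among the 13991 features by mean FPKM. The ID genes followed, with ID3 at 127 to 144 FPKM, ID1 at 100 to 111 FPKM and ID2 at 86.2 to 110 FPKM. The transducer SMAD5 (9.0 to 11.6 FPKM), the receptor BMPR2 (7.71 to 10.5 FPKM), the inhibitory SMAD6 (6.92 to 8.10 FPKM) and the receptor BMPR1A (4.19 to 5.22 FPKM) formed a middle tier. The lowest levels were those of SMAD1 (2.52 to 3.36 FPKM) and of the ligand BMP4 (1.04 to 1.78 FPKM), which ranked 9247 and 10574. In this order the ranges of neighbouring genes overlapped for ID1 and ID2, for SMAD5 and BMPR2, and for BMPR2 and SMAD6. Within a library ID1 exceeded ID2 in 4 of 6 (3 of them libraries in which the deposited FPKM of ID2 was low against its count, as described for ID2, so this order is uncertain), SMAD5 exceeded BMPR2 in 6 of 6 and BMPR2 exceeded SMAD6 in 5 of 6, and the other neighbours kept 1 order in all 6 libraries.

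**Figure D2:**
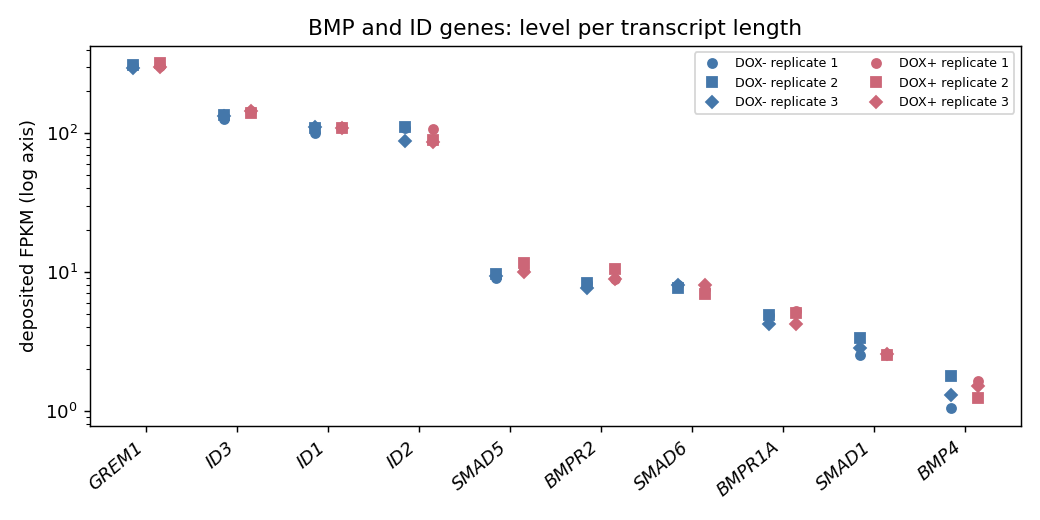
Deposited FPKM of each gene in each library on a log axis, ordered by mean level, with DOX− libraries in blue and DOX+ libraries in red. GREM1 (295 to 319 FPKM) and the ID genes (86.2 to 144 FPKM) sit above the receptors and SMADs, and BMP4 is lowest at 1.04 to 1.78 FPKM.

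BMP4 (ENSG00000125378, chromosome 14 of GRCh38, 53949736 to 53958761, minus strand) encodes the BMP ligand of the set. It had 68, 118 and 98 counts in the DOX− libraries and 110, 79 and 98 counts in the DOX+ libraries, and the groups overlapped fully. The log2 fold change was −0.03 with a 95% interval from −0.49 to 0.43 (edgeR adjusted p = 0.967). This interval was the widest of the 10 genes, so these counts leave room for a change anywhere within it. Without DOX− replicate 1 its log2 fold change was −0.21 and without DOX− replicate 2 it was 0.15, and neither value was called.

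GREM1 (ENSG00000166923, chromosome 15, 32718004 to 32745106, plus strand), the antagonist, took 0.473% to 0.506% of all counts. Its level was 4994, 4968 and 4855 CPM in the DOX− libraries and 4856, 4995 and 4715 CPM in the DOX+ libraries, with 1 DOX+ library as high as the highest DOX− library. The log2 fold change was −0.02 with the narrowest interval of the 10 genes, from −0.07 to 0.02 (SE 0.0217, edgeR adjusted p = 0.638), and without 1 library it lay between −0.0445 (DOX+ replicate 2 left out) and −0.0034 (DOX+ replicate 3 left out). Once each library's trend of counts on GC content was removed, GREM1 was called lower at −0.08 (edgeR adjusted p = 0.0011), and with the trend on transcript length removed at −0.08 (edgeR adjusted p = 0.0288).

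Of the receptors, BMPR1A (ENSG00000107779, chromosome 10, 86756596 to 86932825, plus strand), a type I receptor, was measured at 49.1, 50.8 and 46.9 CPM in DOX− cells and at 53.0, 50.2 and 44.7 CPM in DOX+ cells. The DOX+ values lay on both sides of the DOX− values, and the log2 fold change was 0.01 (95% interval −0.12 to 0.14, edgeR adjusted p = 0.956). BMPR2 (ENSG00000204217, chromosome 2, 202376327 to 202567751, plus strand), the type II receptor, stood at 105, 105 and 98.9 CPM in DOX− cells and at 110, 129 and 111 CPM in DOX+ cells. Every DOX+ library was above every DOX− library, and replicate 2 was the highest. The DOX+ mean was 117 ± 10.9 CPM (SD, n = 3) against 103 ± 3.38 CPM (SD, n = 3). The log2 fold change was 0.18 (95% interval 0.06 to 0.31, edgeR adjusted p = 0.168), and over the fits that left out 1 library it ran from 0.10 without DOX+ replicate 2 to 0.23. DESeq2's test called BMPR2 higher (log2 fold change 0.19, adjusted p = 0.0292), as it did 3.32% of the features to which it gave an adjusted p, and with the GC trend removed the value was 0.12 (edgeR adjusted p = 0.175). In GENCODE 44 an unnamed protein-coding gene overlaps BMPR2 on the same strand and is not listed in the table, so its reads and those of BMPR2 cannot be told apart.

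SMAD5 (ENSG00000113658, chromosome 5, 136132845 to 136188747, plus strand) had the smallest p of the 10 genes. This BMP-activated transducer was measured at 68.6, 69.8 and 71.0 CPM in DOX− cells and at 77.2, 84.8 and 74.6 CPM in DOX+ cells, so that the lowest DOX+ library was above the highest DOX− library. The log2 fold change was 0.18 (standard error 0.0505, 95% interval 0.07 to 0.28, edgeR unadjusted p = 0.00411, adjusted p = 0.127), and without DOX+ replicate 2 it was 0.12. DESeq2's test called SMAD5 higher as well (adjusted p = 0.0278), and with the GC trend removed its log2 fold change was 0.10 (edgeR adjusted p = 0.265). SMAD1 (ENSG00000170365, chromosome 4, 145481194 to 145559176, plus strand), its close relative, was at 5.31, 7.19 and 6.28 CPM in DOX− cells and at 5.55, 5.33 and 5.41 CPM in DOX+ cells. The DOX+ values fell inside the DOX− range, with a log2 fold change of −0.21 (95% interval −0.50 to 0.09, edgeR adjusted p = 0.507). It was −0.09 without DOX− replicate 2, the highest SMAD1 library, and −0.31 without DOX− replicate 1, the lowest. SMAD6 (ENSG00000137834, chromosome 15, 66702236 to 66782849, plus strand), which inhibits the pathway, was at 34.2, 32.2 and 33.3 CPM in DOX− cells and at 31.1, 27.5 and 33.1 CPM in DOX+ cells. Its lowest value was that of DOX+ replicate 2, the groups overlapped, and the log2 fold change was −0.12 (95% interval −0.27 to 0.03, edgeR adjusted p = 0.439). Without DOX+ replicate 2 the value for SMAD6 was −0.0489, without DOX+ replicate 3 it was −0.18, and with the GC trend removed it was −0.0662.

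Over the 6 libraries, the genes whose log2 CPM most resembled that of SMAD5 were DDX17 (Pearson r = 0.996), FOXK1 (0.992) and LARP4B (0.989), with 83 genes over 0.95. Among the BMP and ID genes, ID2 (0.96) and BMPR2 (0.91) varied with SMAD5 and SMAD6 varied against it (−0.92). The rest followed SMAD5 less closely: ID3 (0.42), BMPR1A (0.22), ID1 (0.04), GREM1 (0.006), BMP4 (−0.16) and SMAD1 (−0.48). These correlations describe 6 libraries in 2 groups, 3 of which stood apart on the principal components above.

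ID1, ID2 and ID3 are classical BMP targets, and their promoter sequences are printed because SMAD complexes are known to act on such regions. Each is the run of 250 bases before the RefSeq start, 5′ to 3′ on the gene's strand, from assembly GRCh38.p14: ID1 at chr20:31605039-31605288 (plus strand), ID2 at chr2:8681806-8682055 (plus strand) and ID3 at chr1:23559502-23559751 (minus strand). The BMPR2 window at chr2:202376077-202376326 (plus strand) is shown beside them for the receptor gene whose groups did not overlap. Capitals mark matches, on either strand, to GGCGCC and CAGAC, letters that SMAD proteins are known to bind, and to CCAAT and TATAA, letters of common core promoter elements.
ID1: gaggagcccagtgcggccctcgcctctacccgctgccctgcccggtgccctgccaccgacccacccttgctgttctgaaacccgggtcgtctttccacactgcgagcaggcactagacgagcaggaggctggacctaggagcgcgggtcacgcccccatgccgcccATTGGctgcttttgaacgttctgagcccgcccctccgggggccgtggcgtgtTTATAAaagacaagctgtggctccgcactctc
ID2: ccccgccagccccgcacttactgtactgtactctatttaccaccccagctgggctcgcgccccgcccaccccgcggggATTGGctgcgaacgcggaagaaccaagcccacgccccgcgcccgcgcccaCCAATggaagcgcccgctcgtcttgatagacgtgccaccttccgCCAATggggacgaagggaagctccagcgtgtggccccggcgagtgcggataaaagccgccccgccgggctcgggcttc
ID3: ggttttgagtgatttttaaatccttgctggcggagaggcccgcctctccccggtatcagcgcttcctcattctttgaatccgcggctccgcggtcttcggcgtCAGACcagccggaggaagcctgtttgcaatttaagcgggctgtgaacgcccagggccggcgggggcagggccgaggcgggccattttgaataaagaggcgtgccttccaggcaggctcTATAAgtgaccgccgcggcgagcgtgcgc
BMPR2: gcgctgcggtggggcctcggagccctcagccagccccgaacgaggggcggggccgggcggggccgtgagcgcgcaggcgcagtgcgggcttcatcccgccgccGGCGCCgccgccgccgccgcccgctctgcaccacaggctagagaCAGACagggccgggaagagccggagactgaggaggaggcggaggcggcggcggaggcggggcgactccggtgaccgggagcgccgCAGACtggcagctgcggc
In the ID1 window CCAAT began 84 bases before the start on the reverse strand, and TATAA matched on both strands at 31 and 32 bases, as a single overlapping run. The ID2 window held CCAAT at 172, 122 and 78 bases and no TATAA, and the ID3 window held CAGAC at 147 and TATAA at 29 bases. Neither the ID1 window nor the ID2 window held GGCGCC or CAGAC. The BMPR2 window held GGCGCC at 147 bases and CAGAC at 103 and 18 bases. All 10 genes matched the RefSeq table, with 17 windows between them, of which 5 held GGCGCC, 7 CAGAC, 5 CCAAT and 6 TATAA. Over all 35116 windows of that length, 16.4% held GGCGCC, 38.0% CAGAC, 32.0% CCAAT and 18.9% TATAA. A match is a description of letters only.

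ID1 (ENSG00000125968, chromosome 20, 31605283 to 31606515, plus strand) was measured at 112, 123 and 126 CPM in DOX− cells and at 123, 118 and 121 CPM in DOX+ cells. All 3 DOX+ values fell inside the DOX− range, and the 95% interval of the log2 fold change ran from −0.10 to 0.11 (edgeR adjusted p = 0.974). For ID1 the log2 fold change of 0.005 became 0.0672 with the length trend removed and 0.0565 with the GC trend removed. Neither value was called (edgeR adjusted p = 0.496 and 0.544). ID2 (ENSG00000115738, chromosome 2, 8678845 to 8684461, plus strand) was at 164, 166 and 164 CPM in DOX− cells and at 172, 184 and 167 CPM in DOX+ cells. Each DOX+ library was above each DOX− library, the lowest DOX+ value of 167 CPM lying next to the highest DOX− value of 166 CPM, and the log2 fold change of 0.08 was not called (95% interval −0.01 to 0.17, edgeR adjusted p = 0.382). It ran from 0.0433 without DOX+ replicate 2 to 0.1154 without DOX+ replicate 3, and was 0.0486 with the GC trend removed and 0.132 with the length trend removed. ID3 (ENSG00000117318, chromosome 1, 23557926 to 23559501, minus strand) was at 176, 186 and 186 CPM in DOX− cells and at 196, 186 and 196 CPM in DOX+ cells. The lowest DOX+ value met the 2 highest DOX− values at 186 CPM, and the log2 fold change was 0.08 (95% interval −0.01 to 0.16, edgeR adjusted p = 0.389), or 0.0514 without DOX− replicate 1. With the GC trend removed ID3 was called higher, at 0.12 (edgeR adjusted p = 0.0485), where 1.14% of the features tested in that fit were called higher. Removing the length trend put ID3 at 0.1407, which was not called (edgeR adjusted p = 0.0721).

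The deposited FPKM put ID2 in another order than the counts did. On that scale ID2 stood at 109, 110 and 87.4 FPKM in DOX− cells and at 107, 89.3 and 86.2 FPKM in DOX+ cells, so that DOX− replicate 3 and DOX+ replicates 2 and 3 lay together below the other 3 libraries and the groups overlapped. The log2 fold change on log2(FPKM + 0.1) was −0.12 (standard error 0.106, limma adjusted p = 0.656), against 0.08 on the counts. The transcript length implied by a library's ID2 count and FPKM ran from 1490 to 2088 bp, a 1.40-fold range, against 1.02-fold ranges for ID1 and for ID3. The 3 libraries with the low ID2 FPKM had the 3 longest implied lengths, and the cause was not tested.

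**Figure D3:**
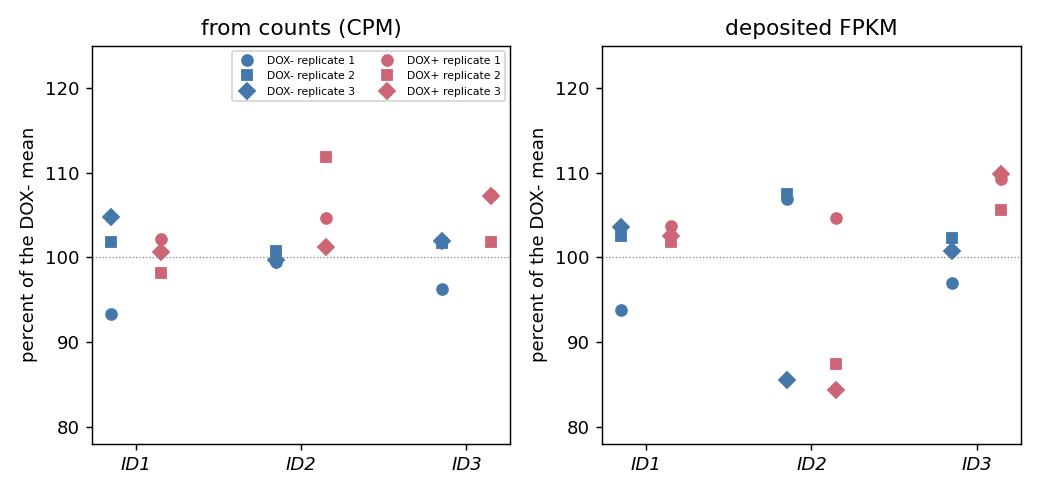
ID1, ID2 and ID3 in each library as CPM from the counts (left) and as deposited FPKM (right), each as a percent of its DOX− mean, with DOX− libraries in blue and DOX+ libraries in red. ID2 lies at 109, 110 and 87.4 FPKM within the DOX− group, whose CPM values lie together, while ID1 and ID3 show no such split.

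The wider pathway was followed in 57 genes, of which 46 were tested and 3 (BMP7, HEY2 and DLX5) had 0 counts in every library. In this list 1 gene was called higher and 2 lower, where 0.4% of all features were called higher and 0.715% lower, and the median log2 fold change was −0.01 beside −0.0019 over all features. None of the 5 tested ligand genes was called, and 0 had an unadjusted edgeR p under 0.05. None was called among the 9 tested receptor and co-receptor genes (2 higher at an unadjusted p under 0.05, as were 7.31% of all features), the 6 SMAD genes (1 higher) or the 10 tested target genes (1 higher), where DESeq2 called BMPR2 and SMAD5 of the 16 genes in these 4 classes with an adjusted p. All 3 calls fell among the 16 tested antagonists and modulators, whose log2 fold changes ran from −0.17 to 0.29, with 3 higher and 3 lower at an unadjusted p under 0.05. FST (ENSG00000134363), which encodes follistatin, a secreted binder of activins that also binds BMPs, fell from 1192, 1179 and 1213 CPM to 1055, 1057 and 1067 CPM. The groups stood well apart, with −0.17 ± 0.0242 (SE) as the log2 fold change (edgeR adjusted p = 0.00327), and the call held in all 6 fits without 1 library. FSTL1 (ENSG00000163430), which encodes the secreted glycoprotein follistatin-like 1, fell from 2115, 2082 and 2018 CPM to 1882, 1927 and 1837 CPM. On the log2 scale it changed by −0.14 ± 0.0254 (SE, edgeR adjusted p = 0.0183), and the call held in 2 of the 6 fits, those without DOX− replicate 3 and without DOX+ replicate 2. Library size scaling also ended the FSTL1 call, at −0.1181 (edgeR adjusted p = 0.0555). TWSG1 (ENSG00000128791), which encodes twisted gastrulation, a secreted BMP-binding protein that works with chordin, rose from 247, 270 and 240 CPM to 297, 321 and 291 CPM. On the log2 scale TWSG1 changed by 0.27 ± 0.0490 (SE, edgeR adjusted p = 0.0193). Leaving out replicate 1 of either group or replicate 3 of the DOX− group ended the call (edgeR adjusted p up to 0.116), at values of 0.23 to 0.28. With limma on the FPKM values none of the 3 was called (adjusted p from 0.133 to 0.333), at log2 fold changes of −0.139 for FST, −0.107 for FSTL1 and 0.293 for TWSG1.

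The next smallest p in the list was that of HES1. This target gene, which encodes a repressor of the helix-loop-helix family, was at 3.31, 2.47 and 2.87 CPM in DOX− cells and at 4.01, 5.30 and 4.03 CPM in DOX+ cells. Its groups did not overlap, and its log2 fold change was 0.63 ± 0.174 (SE, edgeR adjusted p = 0.116). Other relatives of the 10 genes, named after their values were seen, were not called. SMAD4, the partner of SMAD1 and SMAD5, had a log2 fold change of 0.05 (edgeR adjusted p = 0.649) and the inhibitory SMAD7 one of 0.09 (edgeR adjusted p = 0.432). SMAD9, the remaining BMP-activated transducer, had one of 0.12 (edgeR adjusted p = 0.394), and ID4, the remaining ID gene, one of 0.07 (edgeR adjusted p = 0.704). NOG, which encodes the antagonist noggin, had a log2 fold change of −0.17 (edgeR adjusted p = 0.361), which was −0.0909 without DOX+ replicate 3 and −0.2378 without DOX+ replicate 1. Leaving out 1 library at a time, SMAD4 ran from 0.0218 to 0.0679, SMAD7 from 0.068 to 0.134, SMAD9 from 0.0938 to 0.1471 and ID4 from −0.0073 without DOX− replicate 1 to 0.1269. With the GC trend removed SMAD4 was at 0.0031, SMAD7 at 0.1398, ID4 at 0.0288 and NOG at −0.1098, and with the length trend removed SMAD4 was at 0.0082.

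**Figure D4:**
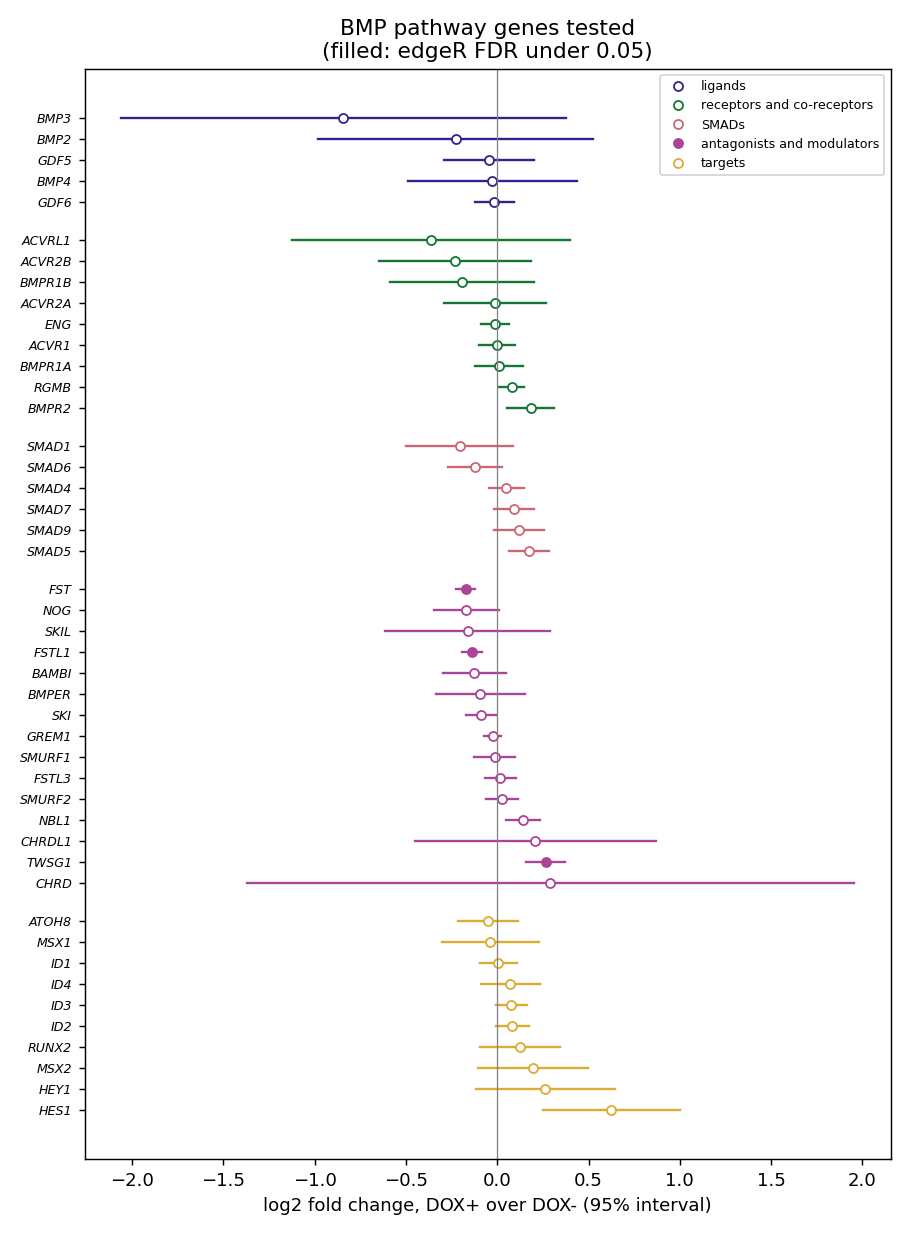
Log2 fold change of DOX+ over DOX− with its 95% interval for 45 of the 46 tested genes of the pathway list, grouped by role, with filled points for an edgeR FDR under 0.05. The filled points are FST and FSTL1 below 0 and TWSG1 above 0, and the intervals of BMP3 and CHRD are among the widest.

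Genes that ID proteins act on or vary with were taken from further lists of 47 genes, of which 45 were tested and 0 were called by edgeR. At an unadjusted p under 0.05, 3 were higher and 8 lower, where 7.31% of all features were higher and 7.69% lower. DESeq2 called 3 of the 37 with an adjusted p, against 6.62% of all such features. Of the E proteins, TCF4 had a log2 fold change of 0.12 (edgeR adjusted p = 0.221), TCF12 one of 0.11 (edgeR adjusted p = 0.214) and TCF3 one of −0.08 (edgeR adjusted p = 0.432). With the GC trend removed the values were 0.0588, 0.0571 and −0.0071, and with limma on FPKM 0.2237, 0.2123 and 0.0051, none of them called. TCF3 ran from −0.1046 to −0.0445 over the fits that left out 1 library. Of the 19 proliferation genes 0 were called by edgeR (1 higher and 4 lower at an unadjusted p under 0.05), with a median of −0.02, and the 3 DESeq2 calls were among them. The 17 tested immediate-early genes had a median of −0.05, and edgeR called 0 of them (0 higher and 3 lower at an unadjusted p under 0.05), as did DESeq2 for the 12 with an adjusted p.

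The 10 genes lie at different places along trends that ran through the 12771 features with a known length and GC content. By GC content of the transcript, the median log2 fold change over 5 equal bins of features was 0.07 in the bin of lowest GC content and −0.07 in the bin of highest. BMPR1A, BMPR2, SMAD5 and GREM1 fell in the lowest bin and SMAD6 in the highest. By transcript length, the median was −0.05 in the bin of shortest transcripts, which held ID1, ID2 and ID3, and 0.04 in the bin of longest, which held BMPR1A, BMPR2, SMAD5 and GREM1. With the GC trend of each library removed, 2 of the 10 genes were called (ID3 higher, GREM1 lower), against 2.54% of all features in that fit (1.14% higher, 1.39% lower). With the length trend removed, 1 was called (GREM1 lower), against 1.18% (0.407% higher, 0.775% lower). DESeq2's test gave no adjusted p for BMP4 and SMAD1 and called 2 of the other 8 genes (BMPR2 and SMAD5, both higher). It called 6.62% of the 8023 features that had an adjusted p (3.32% higher, 3.3% lower).

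**Figure D5:**
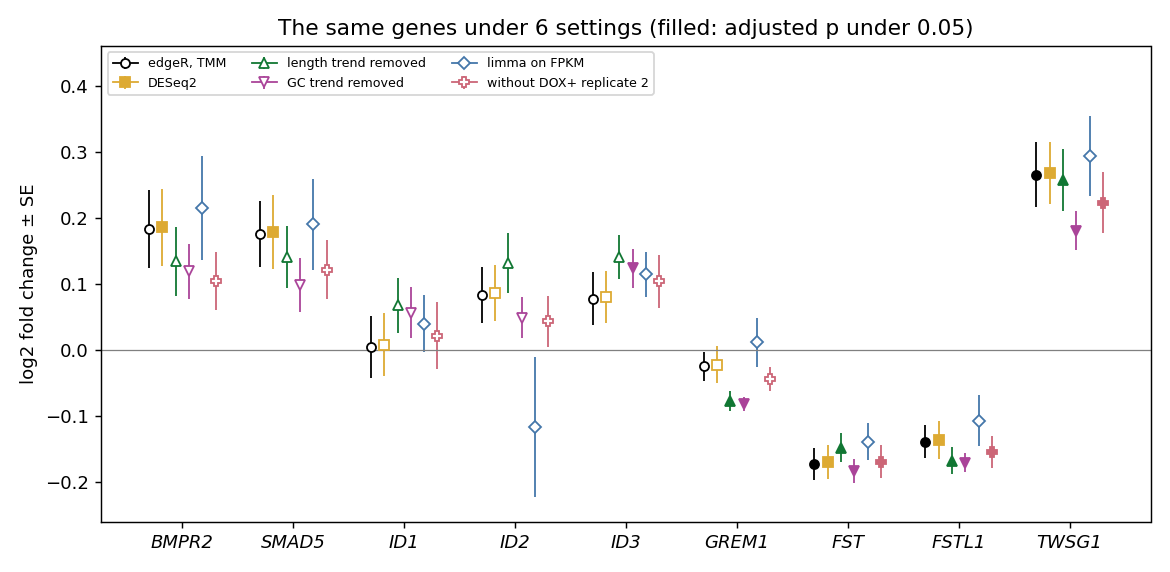
Log2 fold change with its standard error for 9 genes under 6 settings, with filled markers for an adjusted p under 0.05. BMPR2 and SMAD5 are filled only under DESeq2, ID3 only with the GC trend removed and GREM1 with either trend removed, while FST, FSTL1 and TWSG1 are filled in every setting drawn except limma on FPKM.

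In GENCODE 44, antisense genes overlap SMAD1, SMAD5, ID2 and GREM1, a further lncRNA gene overlaps BMP4 on the opposite strand, and another overlaps SMAD6 on the same strand. Other lncRNA genes overlap TWSG1 on the same strand and FSTL1 on the opposite strand. None of them is listed in the table. Whether the counting used strand is not given in the sources used here, so reads of these genes and of the genes that overlap them cannot be told apart.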

How the data were processed

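Poly(A)-selected RNA from 3 DOX− and 3 DOX+ libraries was sequenced on an Illumina instrument. After a quality filter, the authors used HISAT2 and StringTie with GRCh38. The versions of both tools, the step that gave the counts and the annotation release are not given in the sources used here. The authors deposited whole-number counts per gene, without normalization, and FPKM values, which scale each count by depth and transcript length. Groups came from the sample titles. The table was reduced by 17 stray lines without a gene, which left 23754 features, 3780 of them unannotated loci.

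Counts were tested with edgeR 4.0.16 in R 4.3.3 (filterByExpr with a minimum count of 10, TMM, the quasi-likelihood test without covariates, Benjamini-Hochberg FDR over 13991 features). The size of a log2 fold change over the root of its F statistic gave the standard error, and 95% intervals use the t distribution of that fit. The common biological coefficient of variation was 0.0731. Within a group, chi-square per degree of freedom between libraries was 4.65 to 8.48, so none was a copy of another. Scripts were tested on simulated data. The members and gene lists were chosen with earlier results of these data known. Named genes are the 10 genes, ZNF469, genes of the pathway and ID lists at an FDR under 0.05, filled up to 5 with the smallest p of the pathway list, and the 3 genes most correlated with the member of smallest p. The results of some genes under this rule and of the marker lists are not reported here, although they entered every test. Alternatives were 2 other filters, 3 other scalings, DESeq2 1.42.0, limma-voom and, added after seeing the data, limma 3.58.1 on log2(FPKM + 0.1). Further alternatives were the replicate number as a block, lowess trends (span 0.3) on length or GC content over 12771 features, and leaving out each library. GENCODE 44 gave coordinates, length and GC content. Promoters came from RefSeq (GRCh38.p14).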

Additional observations from a re-analysis of the deposited data

How the results depend on the processing

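The decrease of ZNF469 kept its direction and its call in all 17 alternatives, with log2 fold changes from −0.62 to −0.47. The 56 genes called higher and 100 lower became 127 and 163 without a filter, 88 and 77 with library size scaling, 266 and 265 with DESeq2 (which gave 8023 features an adjusted p), 146 and 178 with the GC trend removed and 6 and 24 with limma on FPKM. They became 19 and 54 at an FDR under 0.01, 1023 and 1076 at an unadjusted p under 0.05 and 2 and 4 past an absolute log2 fold change of 1. Without 1 library each they ran from 20 to 69 higher and from 54 to 92 lower. Of the 10 BMP and ID genes, 0 were called in the fits without 1 library, 2 with DESeq2, 2 with the GC trend removed, 1 with the length trend removed and 2 at an unadjusted p under 0.05. The pathway list, with 1 gene called higher and 2 lower, had 4 higher with DESeq2. With the GC trend removed it had 3 higher and 3 lower. It had 3 lower with the length trend removed and 1 lower with library size scaling. It had 0 and 0 with limma on FPKM, 0 higher and 1 lower at an FDR under 0.01, 7 higher at an unadjusted p under 0.05 and 0 and 0 past an absolute log2 fold change of 1. Without 1 library it had 0 to 1 higher and 1 to 2 lower. The ID partner lists had 3 genes called with DESeq2 and 11 at an unadjusted p under 0.05.

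With the replicate number as a block, 135 genes were called higher and 157 lower, the pathway list had 2 called higher, the ID partner lists had 1, and 0 of the 10 genes were called. Libraries with the same number deviated from their group means with correlations of −0.02, −0.04 and 0.04. No pairing by number was seen in these values, but 3 libraries a group cannot exclude it.

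Signs changed for 7 of the genes with a value in the report, none of them called in the main comparison. BMP4 was at 0.0042 with the length trend removed, 0.0022 with the GC trend removed and 0.11 with limma on FPKM, and ran from −0.21 to 0.15 without 1 library. BMPR1A was at −0.022 and −0.0494 with the length and GC trends removed and ran from −0.0449 to 0.0768. ID1 ran from −0.0415 to 0.0400 and ID4 from −0.0073 to 0.13. With limma on FPKM, ID2 was at −0.12, GREM1 at 0.0115 and TCF3 at 0.0051. The causes were not tested. With 3 libraries a group, intervals of SMAD1 and BMP4 remain wide, at 68 to 118 counts a library for BMP4.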
